A study of Mus musculus with 10 samples.

Results

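The genes described here are 36 genes of the mitotic spindle, the kinetochore and cell division. They were chosen by name as a list of Ensembl identifiers by a rule that uses no measured value, but with earlier results of these data known. Of the 36, 33 were among the 16860 genes of the deposited table. The other 3, Mki67, Kif20a and Ttk, were not analysed here. The list gives a gene symbol with each identifier, while the table holds identifiers only and the RefSeq table used here lists Ensembl identifiers for 0 genes, so that neither this pairing nor smooth muscle markers were checked. RNA of the 33 genes was measured in primary smooth muscle cells from the thoracic aorta of C57BL/6 mice aged 8 weeks, on Affymetrix Mouse Genome 430 2.0 arrays, with 2 arrays in each of 3 groups. Cells of the HDL group were loaded for 72 h with 10 µg/mL cholesterol complexed with methyl-β-cyclodextrin (molar ratio 1:6) and then kept for 72 h with 100 µg/mL human high-density lipoprotein (HDL), a particle that takes up cholesterol from cells. Cells of the cholesterol group were harvested at the end of the same loading, and cells of the baseline group were harvested while subconfluent, with no stimulus listed. All groups were at passage 5 or below in medium with 10% fetal bovine serum. The labels do not say whether the 2 arrays of a group came from separate cultures or mice, so that p-values measure only the spread between these arrays, which may be technical. No group given the carrier alone, kept in culture for 72 h without cholesterol, or loaded and then kept without HDL was analysed here. Cholesterol, its carrier, the time in culture and any difference in cell density therefore cannot be told apart in the comparisons with baseline. Nor can HDL and the later harvest be told apart in the comparison of the HDL and cholesterol groups.

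Cells enter mitosis when cyclin B bound to the kinase Cdk1 becomes active, and a wave of genes transcribed from late S phase to mitosis supplies the proteins that build the spindle, attach chromosomes to it and divide the cell. Their RNA is low in cells outside these phases, so the level of these genes in a bulk sample is widely used as a measure of proliferation. Smooth muscle cells of the adult aorta divide rarely in the vessel wall and resume division in culture and after injury. In bulk RNA, fewer cells in division and less of these RNAs per dividing cell cannot be told apart.

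Values are log2 Robust Multichip Average (RMA) values of the normalization that held all 6 arrays, and differences are on the log2 scale. A gene was called, and is said to have fallen or risen, at a limma adjusted p under 0.05 over all 16860 genes. The HDL arrays differed from each other in the genes described here. All 33 lay higher on HDL replicate 1 than on replicate 2, by a median of 0.65 and by 0.09 to 1.19, while the median difference over all genes was 0.0094. On the cholesterol arrays 3 of the 33 lay higher on replicate 1, with a median difference of -0.22, and on the baseline arrays 4 of 33, with a median of -0.20. The plot of replicate differences shows that the genes shifted together between arrays of one group. Counts over the genes that involve the HDL group are therefore given with each HDL array alone as well. For each gene shown by array where leaving out an HDL array changed its call, the difference with each HDL array alone is given. In those fits the spread comes from the cholesterol and baseline arrays only. They leave out the difference between the HDL arrays, the largest of the 3 pairs for these genes. Counts from these fits can therefore be too high, and no adjusted p is given with HDL replicate 1 or 2 alone.

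**Figure D1:**
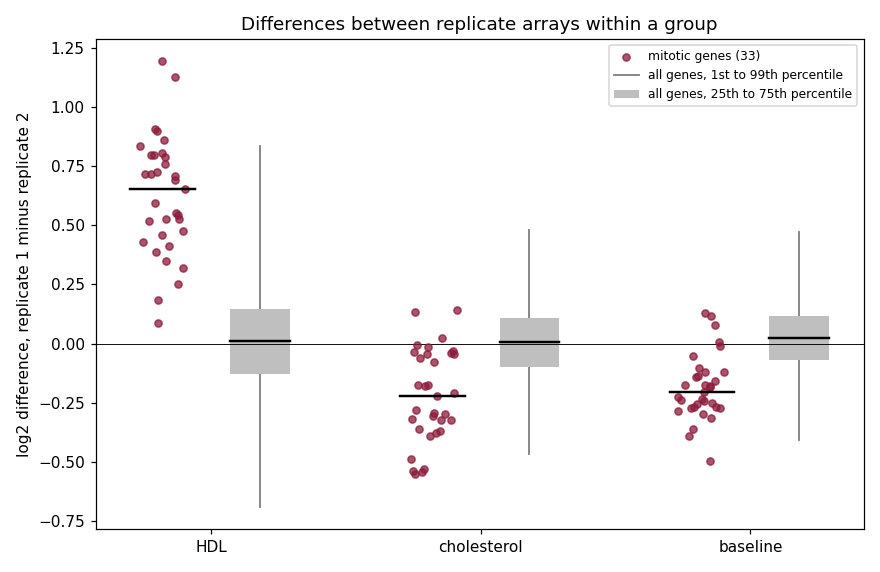
Difference between replicate 1 and replicate 2 (log2) for the HDL, cholesterol and baseline groups. Points are the 33 mitotic genes with their median as a line, and grey bars and lines show the 25th to 75th and 1st to 99th percentiles of all 16860 genes; the genes lie above 0 in the HDL pair (median 0.65) and mostly below 0 in the cholesterol (-0.22) and baseline pairs (-0.20).

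After cholesterol loading 30 of the 33 mitotic genes fell and 0 rose. Of all 16860 genes 13.1% fell and 10.4% rose in this comparison. The median difference of the 33 genes between cholesterol and baseline cells was -2.05, which is 4.15-fold lower, and the median over all genes was -0.026. The median level of the 33 genes was 6.26 and 6.51 on the cholesterol arrays, against 8.53 and 8.78 on the baseline arrays. Differences spanned -3.15 for Bub1 to -0.40 for Aspm. Of the 33 genes 27 fell by at least 1, against 2.67% of all genes. On all 33 both cholesterol arrays lay below both baseline arrays, an order that 35.4% of all genes showed. Nusap1, Kif2c and Ncapg were not called, with differences of -0.65 ± 0.20 (SE, adjusted p = 0.0613), -0.57 ± 0.17 (SE, adjusted p = 0.0566) and -0.43 ± 0.14 (SE, adjusted p = 0.0682). All 33 genes, these 3 included, were called lower in the separate normalization of the baseline and cholesterol arrays, where the median difference was -2.06. More of all 16860 genes were called there as well, 4919 in either direction, against 3960 in the fit of all arrays. The one-way test per gene that the study's design text names called 0 of the 33 in that normalization and in the normalization of all arrays. In each, 32 of the 33 had an unadjusted p under 0.05. Of all 16860 genes this test called 38 and 3 in these normalizations, with 4844 and 4746 at an unadjusted p under 0.05.

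**Figure D2:**
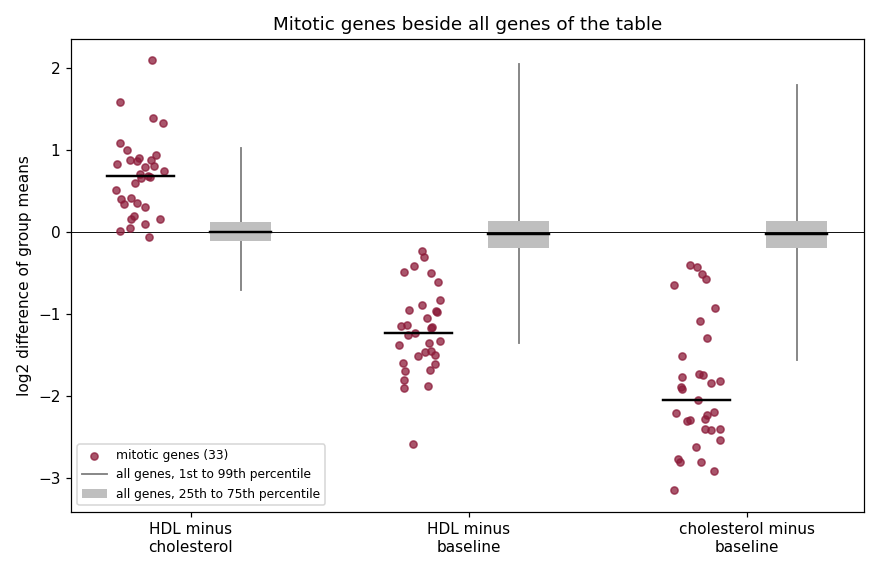
Differences of group means (log2) for HDL minus cholesterol, HDL minus baseline and cholesterol minus baseline. Points are the 33 mitotic genes with their median as a line (0.69, -1.23 and -2.05), beside grey bars and lines for the 25th to 75th and 1st to 99th percentiles of all 16860 genes, whose medians are 0.0037, -0.024 and -0.026.

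After HDL treatment of loaded cells 2 of the 33 genes, Bub1 and Ccna2, rose relative to the cholesterol group and 0 fell. Among all genes 1.79% rose and 0.949% fell. The median difference of the 33 genes between HDL and cholesterol cells was 0.69, which is 1.61-fold, with a range of -0.063 for Ncapg to 2.09 for Bub1, and the median over all genes was 0.0037. The median level of the 33 genes was 7.42 and 6.91 on the HDL arrays, against the 6.26 and 6.51 on the cholesterol arrays. At an unadjusted p under 0.05, 21 of the 33 lay higher, against 9.73% of all genes. Both HDL arrays lay above both cholesterol arrays for 24 of 33 genes, against 24.7% of all genes. HDL replicate 1 lay above both cholesterol arrays for all 33 genes, with a median of 1.03 above their mean. HDL replicate 2 did so for 24, with a median of 0.42, and lay below both for 4, which were Cdc20, Foxm1, Kif2c and Ncapg. Leaving out HDL replicate 2 gave 23 genes that rose, against 5.6% of all genes, and leaving out HDL replicate 1 gave 2, against 1.84%. Both calls were lost when either cholesterol array was left out. They were also lost when either baseline array was left out, which enters this comparison only through the shared estimate of the spread. Fewer of all genes were called in these fits too. The one-way test per gene called 0 of the 33 and 0 of all genes. At an unadjusted p under 0.05 it placed 0 of the 33, and 1577 of all genes.

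Relative to baseline, 27 of the 33 genes were lower after HDL and 0 were higher. Of all genes 10.9% were called lower and 9.13% higher. The median difference between HDL and baseline cells was -1.23, or 2.35-fold lower, with a range of -2.58 for Cdc20 to -0.23 for Nusap1, against a median of -0.024 over all genes. By at least 1, 21 of 33 fell, against 1.94% of all genes, and for 32 of 33 both HDL arrays lay below both baseline arrays, against 33.3% of all genes. Bub1, Aurkb, Top2a, Nusap1, Kif2c and Aspm were not called, with adjusted p between 0.0556 for Top2a and 0.502 for Nusap1. The median difference was -0.93 with HDL replicate 1 alone and -1.61 with HDL replicate 2 alone, and the count of lower genes was 26, against 13.8% of all genes, and 32, against 8.06%. Baseline arrays moved the count more, for the 33 and for all genes. Fewer of both were called lower when either baseline array was left out. Without baseline replicate 1, Cdk1, Ccna2, Birc5, Kif11, Cenpf, Foxm1 and Ncapg were among the calls lost, and the median difference was -1.30. Without baseline replicate 2, Ccnb1 and Plk1 joined those 7, and the median difference was -1.16. The one-way test per gene called 0 of 33, with 12 at an unadjusted p under 0.05.

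**Figure D3:**
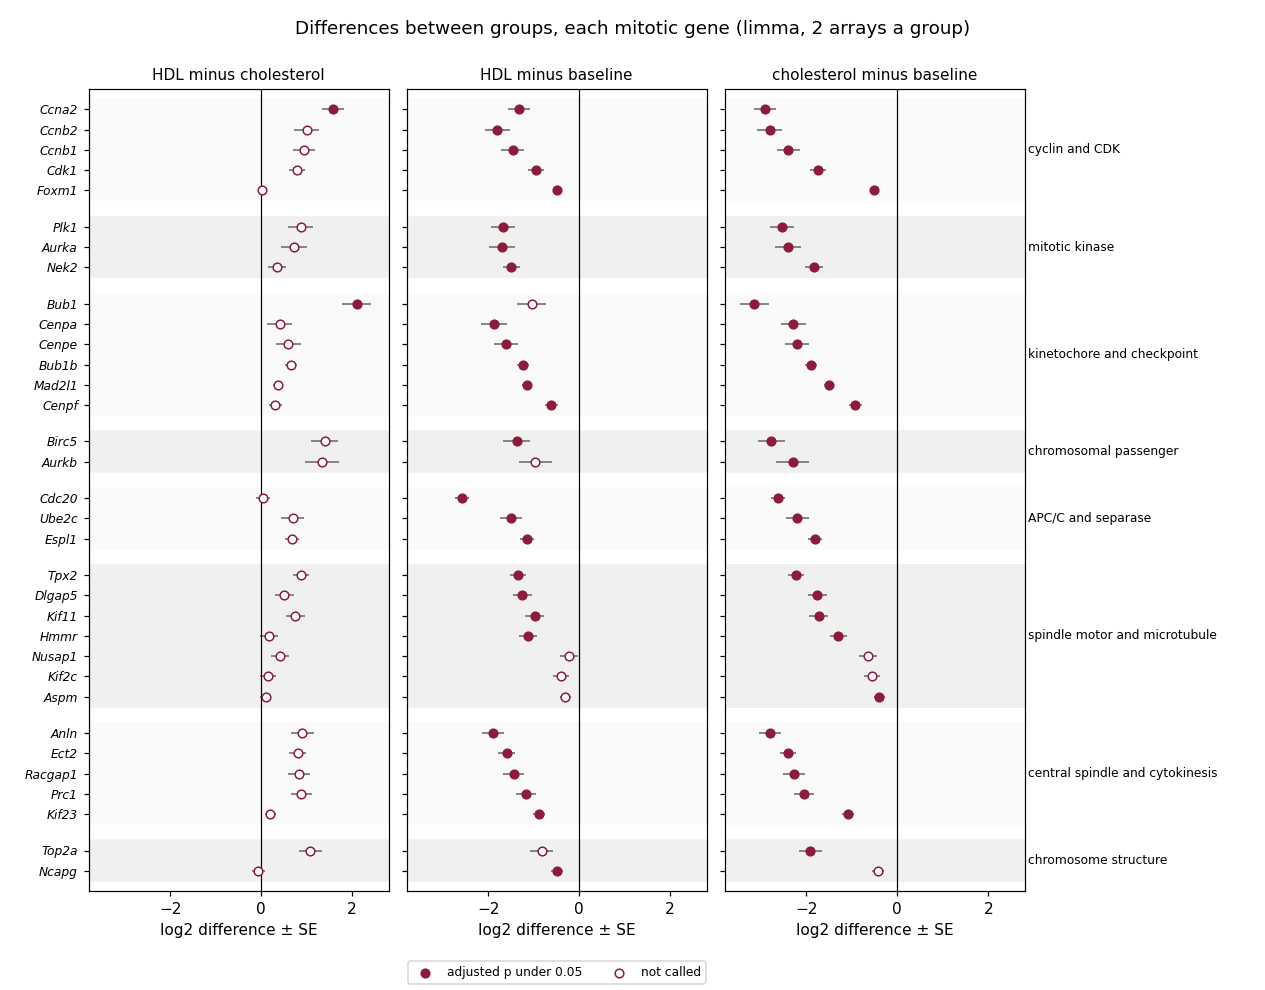
Differences of group means (log2, limma) with bars of 1 SE for each of the 33 mitotic genes, grouped by role, in 3 panels for HDL minus cholesterol, HDL minus baseline and cholesterol minus baseline. Filled points passed an adjusted p of 0.05; 2, 27 and 30 genes did so in these panels, and Bub1 has the lowest value for cholesterol minus baseline (-3.15) and the highest for HDL minus cholesterol (2.09).

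The promoters of these genes are known for 2 kinds of element, the cell cycle genes homology region (CHR), which the MuvB complexes bind, and CCAAT boxes bound by NF-Y. RefSeq promoter windows of 300 bases (250 before to 50 after the start, build GRCm38.p6) were matched by symbol for 28 of the 33 genes, in 30 windows. They were searched on both strands for the CHR letters TTTGAA or TTCGAA and for CCAAT. CHR letters were present in the windows of 22 of the 28 genes (78.6%), against 21.7% of all 27025 genes with a window. CCAAT was present in 23 of 28 (82.1%), against 41.1% of genes, and at least 2 CCAAT were present in 14 of 28 (50%), against 13.3%. Both kinds occurred together in 20 of 28 genes (71.4%), against 8.61% of genes. The E2F letters GCGGGAA occurred in 1 of 28, the Ncapg window, against 5.29% of genes. No CHR and CCAAT letters overlapped in the windows of these genes. These matches are a description of letters, and factor binding was not measured.

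The 120 bases before the start are shown for 6 genes, 5′ to 3′ on the strand of the gene, with CHR and CCAAT letters in capitals. Cdk1, Cdc20, Espl1 and Kif11 are shown because both kinds lie close together before the start. Bub1, which had the largest differences in both directions, has 2 CCAAT in this stretch and its CHR letters after the start. Birc5, whose difference of -2.77 is described with the passenger genes, held neither kind of letters in its whole window.
Cdk1, chr10:69352913-69353032, minus strand: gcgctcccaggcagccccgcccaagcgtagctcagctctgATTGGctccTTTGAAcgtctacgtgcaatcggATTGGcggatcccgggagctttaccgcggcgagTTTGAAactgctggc
Cdc20, chr4:118437344-118437463, minus strand: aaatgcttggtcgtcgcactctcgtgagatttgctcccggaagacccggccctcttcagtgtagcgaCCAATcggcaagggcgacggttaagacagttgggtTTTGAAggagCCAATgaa
Espl1, chr15:102296173-102296292, plus strand: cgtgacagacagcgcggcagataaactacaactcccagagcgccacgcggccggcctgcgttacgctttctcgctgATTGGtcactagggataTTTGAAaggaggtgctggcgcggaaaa
Kif11, chr19:37376262-37376381, plus strand: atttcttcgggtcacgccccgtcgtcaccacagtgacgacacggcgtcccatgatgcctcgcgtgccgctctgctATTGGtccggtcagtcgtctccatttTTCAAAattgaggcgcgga
Bub1, chr2:127831860-127831979, minus strand: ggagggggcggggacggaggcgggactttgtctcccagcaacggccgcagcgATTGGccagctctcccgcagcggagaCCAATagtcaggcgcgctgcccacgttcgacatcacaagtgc
Birc5, chr11:117849117-117849236, plus strand: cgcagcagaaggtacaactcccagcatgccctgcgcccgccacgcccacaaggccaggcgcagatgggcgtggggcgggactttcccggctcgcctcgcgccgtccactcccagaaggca

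Among the cyclins, their kinase and the transcription factor of this wave, all 5 genes fell with cholesterol. Cdk1 (ENSMUSG00000019942_at), the kinase that drives entry into mitosis, had log2 values of 9.67 and 9.12 on the HDL arrays and 8.58 and 8.63 on the cholesterol arrays, against 10.28 and 10.42 on the baseline arrays. Its 3 groups did not overlap, with the HDL arrays between the others. The cholesterol group changed by -1.74 against baseline, which is 3.34-fold (adjusted p = 0.000657), and the HDL group differed from the cholesterol group by 0.79 ± 0.17 (SE, adjusted p = 0.0682). With HDL replicate 1 alone this was 1.07, and with replicate 2 alone 0.51. Ccnb1 (ENSMUSG00000041431_at) encodes cyclin B1, the partner of Cdk1 at mitotic entry, and had 8.81 and 8.05 on the HDL arrays and 7.30 and 7.69 on the cholesterol arrays, against 9.78 and 10.01 on the baseline arrays. Again the groups were apart and the HDL arrays lay between. Ccnb1 changed with cholesterol by -2.40 ± 0.25 (SE, adjusted p = 0.000792), and differed between HDL and cholesterol cells by 0.94 ± 0.25 (SE, adjusted p = 0.115). That value was 1.32 with HDL replicate 1 alone and 0.56 with replicate 2 alone. Ccna2, the cyclin A of S phase and early mitosis, had 9.01 and 8.29 on the HDL arrays and 6.88 and 7.26 on the cholesterol arrays, against 9.88 and 10.09 on the baseline arrays. It had the largest fall of these 5 genes, -2.92 ± 0.24 (SE, adjusted p = 0.000298). It rose after HDL by 1.58 ± 0.24 (SE, adjusted p = 0.0214), and differed from baseline by -1.33 ± 0.24 (SE, adjusted p = 0.0089). The rise was 1.94 with HDL replicate 1 alone and 1.23 with replicate 2 alone. It was not called with the cholesterol and HDL arrays alone (adjusted p = 0.0791), nor without cholesterol replicate 1 (0.179) or replicate 2 (0.0779).

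Foxm1 is the forkhead factor that binds many G2 and M promoters together with MuvB and B-Myb, and it had 6.59 and 6.50 on the HDL arrays and 6.54 and 6.51 on the cholesterol arrays, against 7.04 and 7.03 on the baseline arrays. The HDL and cholesterol arrays of Foxm1 overlapped and all 4 lay below baseline. Its fall with cholesterol was the smallest of this group, -0.51 ± 0.086 (SE, adjusted p = 0.00586), and the HDL and cholesterol groups differed by 0.017 ± 0.086 (SE, adjusted p = 0.954). Ccnb2, the other B-type cyclin on the list, fell with cholesterol (difference -2.81) and differed from baseline after HDL by -1.81.

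**Figure D4:**
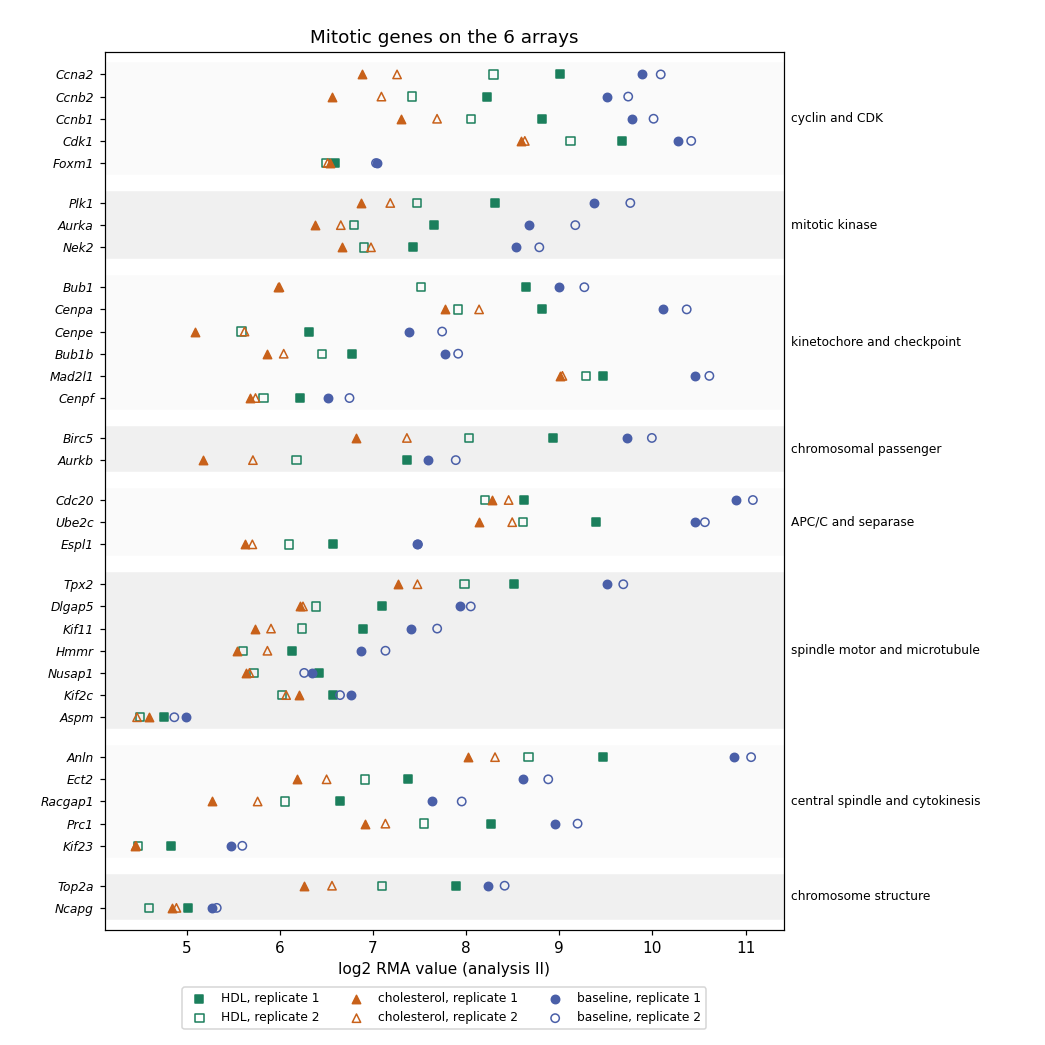
Log2 RMA values of the 33 mitotic genes on each array, grouped by role and ordered within a role by the difference between cholesterol and baseline. Squares are HDL arrays, triangles cholesterol arrays and circles baseline arrays, filled for replicate 1; for 32 of 33 genes all HDL and cholesterol arrays lie below the baseline arrays, and levels are comparable within a gene only.

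All 3 measured genes grouped here as mitotic kinases, Plk1, Nek2 and Aurka, fell with cholesterol. The kinases Cdk1, Bub1 and Aurkb are described with other groups. Plk1 (ENSMUSG00000030867_at), the polo-like kinase needed for spindle assembly and mitotic exit, had 8.31 and 7.47 on the HDL arrays and 6.87 and 7.18 on the cholesterol arrays, against 9.37 and 9.76 on the baseline arrays. The groups were apart, and HDL replicate 2 lay closer to the cholesterol arrays than to HDL replicate 1. Plk1 fell 5.82-fold with cholesterol, a difference of -2.54 ± 0.27 (SE, adjusted p = 0.000891). Its HDL and cholesterol groups differed by 0.86 ± 0.27 (SE, adjusted p = 0.16). This became 1.28 with HDL replicate 1 alone and 0.45 with replicate 2 alone. Nek2, a kinase that separates centrosomes, had 7.42 and 6.91 on the HDL arrays and 6.67 and 6.98 on the cholesterol arrays, against 8.53 and 8.78 on the baseline arrays. HDL replicate 2 lay between the cholesterol arrays here. Nek2 changed with cholesterol by -1.83 ± 0.19 (SE, adjusted p = 0.000829), and its HDL and cholesterol groups differed by 0.34 ± 0.19 (SE, adjusted p = 0.418). Aurka, which acts at centrosomes and spindle poles, changed by -2.41 with cholesterol.

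The 6 measured kinetochore and checkpoint genes all fell with cholesterol, with a median of -2.05, and 5 of them were called below baseline after HDL. Bub1 (ENSMUSG00000027379_at), a checkpoint kinase that marks centromeres for the passenger complex, had 8.64 and 7.52 on the HDL arrays and 5.98 and 5.99 on the cholesterol arrays, against 9.0 and 9.27 on the baseline arrays. The cholesterol arrays were nearly equal, and both HDL arrays lay far above them, with replicate 1 the closer to baseline. With cholesterol Bub1 fell 8.85-fold, -3.15 ± 0.32 (SE, adjusted p = 0.000717). After HDL it rose 4.27-fold relative to the cholesterol group, 2.09 ± 0.32 (SE, adjusted p = 0.0231), and the difference from baseline was -1.05 ± 0.32 (SE, adjusted p = 0.0607). With each HDL array alone the rise was 2.66 for replicate 1 and 1.53 for replicate 2. The rise was not called with the cholesterol and HDL arrays alone (adjusted p = 0.0848), nor without cholesterol replicate 1 (0.178) or replicate 2 (0.129). The difference from baseline was -0.49 with HDL replicate 1 alone and -1.61 with replicate 2 alone. With both HDL arrays it was called when dim genes were left out of the adjustment (adjusted p = 0.0477).

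Cenpf, a large protein of the outer kinetochore, had 6.21 and 5.82 on the HDL arrays and 5.68 and 5.74 on the cholesterol arrays, against 6.51 and 6.75 on the baseline arrays, and fell least of these 6 genes, -0.92 ± 0.15 (SE, adjusted p = 0.00469). The HDL arrays of Cenpf lay above the cholesterol and below the baseline arrays. Its difference between HDL and baseline cells, -0.61 ± 0.15 (SE, adjusted p = 0.0274), was not called with those arrays alone (adjusted p = 0.0565). It was -0.42, and not called, with HDL replicate 1 alone and -0.81 with replicate 2 alone. Bub1b, which encodes the checkpoint protein BubR1, and Mad2l1, the inhibitor that holds back Cdc20, differed between HDL and cholesterol cells by 0.66 and 0.36 without passing the test. Mad2l1 differed from baseline after HDL by -1.16. Cenpa, the histone H3 variant of centromeres, and Cenpe, a kinesin that carries chromosomes to the spindle equator, fell with cholesterol, with differences of -2.29 and -2.21. On HDL replicate 2 both Cenpa and Cenpe lay between the cholesterol arrays.

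Both chromosomal passenger genes fell with cholesterol, and their HDL arrays lay above the cholesterol arrays. Birc5, or survivin, which anchors the complex at centromeres, had 8.93 and 8.03 on the HDL arrays and 6.81 and 7.36 on the cholesterol arrays, against 9.73 and 9.99 on the baseline arrays. The groups were apart, and HDL replicate 1 lay nearer to baseline than to cholesterol. Birc5 fell 6.83-fold with cholesterol, -2.77 ± 0.30 (SE, adjusted p = 0.00096), and differed between HDL and cholesterol cells by 1.39 ± 0.30 (SE, adjusted p = 0.0668). Replicate 1 of the HDL group alone gave 1.85 and replicate 2 alone 0.94. Aurkb, the kinase of the complex that corrects faulty attachments, had 7.37 and 6.18 on the HDL arrays and 5.17 and 5.71 on the cholesterol arrays, against 7.59 and 7.89 on the baseline arrays. HDL replicate 1 was just below the lower baseline array, while replicate 2 was closer to the cholesterol arrays. Aurkb changed with cholesterol by -2.30 ± 0.37 (SE, adjusted p = 0.00469), a call lost without baseline replicate 2 (adjusted p = 0.0514), and its difference between HDL and baseline was -0.97 ± 0.37 (SE, adjusted p = 0.117). This difference from baseline was -0.37 with HDL replicate 1 alone and -1.56 with replicate 2 alone. Relative to cholesterol cells the HDL group of Aurkb differed by 1.33 ± 0.37 (SE, adjusted p = 0.123), and by 1.93 with replicate 1 alone and 0.74 with replicate 2 alone.

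The genes of the anaphase-promoting complex pathway and of separase fell as well, all 3 of them by more than 1. Cdc20 (ENSMUSG00000006398_at), the activator that turns the complex on at anaphase, had 8.63 and 8.20 on the HDL arrays and 8.28 and 8.46 on the cholesterol arrays, against 10.90 and 11.08 on the baseline arrays. All HDL and cholesterol arrays lay more than 2 below baseline, and the HDL and cholesterol arrays overlapped. Its fall with cholesterol was -2.62 ± 0.16 (SE, adjusted p = 8.88e-05). Its difference between HDL and cholesterol cells was 0.045 ± 0.16 (SE, adjusted p = 0.928), and after HDL it was the lowest of the 33 genes relative to baseline, -2.58 ± 0.16 (SE, adjusted p = 7.49e-05). Espl1, the protease that cuts cohesin at anaphase, had 6.57 and 6.10 on the HDL arrays and 5.63 and 5.70 on the cholesterol arrays, against 7.47 and 7.48 on the baseline arrays. The baseline arrays were nearly equal and the groups were apart. Espl1 changed with cholesterol by -1.81 ± 0.15 (SE, adjusted p = 0.000335) and differed between HDL and cholesterol cells by 0.67 ± 0.15 (SE, adjusted p = 0.0759). The second difference was 0.91 with HDL replicate 1 alone and 0.43 with replicate 2 alone. Ube2c, the ubiquitin-conjugating enzyme of the complex, changed by -2.20 with cholesterol and differed from baseline after HDL by -1.51.

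Of 7 genes for spindle motors and microtubule proteins 5 fell with cholesterol, and 4 of the 7 were lower than baseline after HDL. Tpx2, which activates Aurka and nucleates microtubules near chromosomes, had 8.51 and 7.98 on the HDL arrays and 7.27 and 7.48 on the cholesterol arrays, against 9.51 and 9.69 on the baseline arrays. Its groups were apart. Tpx2 fell most of these genes, -2.23 ± 0.18 (SE, adjusted p = 0.000277), and differed between HDL and cholesterol cells by 0.87 ± 0.18 (SE, adjusted p = 0.0566). That difference passed with dim genes left out of the adjustment (adjusted p = 0.0437) and with a variance trend (0.0488). It was 1.14 with HDL replicate 1 alone and 0.61 with replicate 2 alone. Kif11, the kinesin that pushes spindle poles apart, had 6.89 and 6.24 on the HDL arrays and 5.73 and 5.90 on the cholesterol arrays, against 7.40 and 7.69 on the baseline arrays, with no overlap between groups. It changed with cholesterol by -1.73 ± 0.21 (SE, adjusted p = 0.00155). Between HDL and cholesterol cells Kif11 differed by 0.75 ± 0.21 (SE, adjusted p = 0.128), by 1.08 with HDL replicate 1 alone and by 0.42 with replicate 2 alone.

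Aspm, a spindle pole protein, had 4.75 and 4.50 on the HDL arrays and 4.60 and 4.47 on the cholesterol arrays, against 5.00 and 4.87 on the baseline arrays. Aspm changed least of the 33, -0.40 ± 0.12 (SE, adjusted p = 0.0488), and its call was lost without either baseline array (adjusted p = 0.244 and 0.122 without replicate 1 and 2) and without either cholesterol array (0.12 and 0.225). Its mean over the arrays lay under the 25th percentile of the table, 5.01, as did those of Kif23 and Ncapg. Dlgap5 and Hmmr, proteins of spindle microtubules, fell with cholesterol, with differences of -1.76 and -1.29. For Nusap1, which bundles microtubules, HDL replicate 1 was above both baseline arrays, the only such case among the 33 genes. Kif2c, a kinesin that takes microtubules apart, was not called in any of the 3 comparisons.

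All 5 measured genes of the central spindle and of cytokinesis fell with cholesterol and were lower than baseline after HDL. Anln, the scaffold protein of the contractile ring, had 9.47 and 8.67 on the HDL arrays and 8.02 and 8.31 on the cholesterol arrays, against 10.88 and 11.06 on the baseline arrays. All groups were apart, by a wide margin from baseline. Anln fell 6.99-fold with cholesterol, -2.81 ± 0.25 (SE, adjusted p = 0.000386), and differed from baseline after HDL by -1.90 ± 0.25 (SE, adjusted p = 0.00241). The HDL and cholesterol groups of Anln differed by 0.90 ± 0.25 (SE, adjusted p = 0.119), by 1.30 with HDL replicate 1 alone and by 0.51 with replicate 2 alone. Kif23, the motor of the centralspindlin complex, had 4.83 and 4.48 on the HDL arrays and 4.45 and 4.45 on the cholesterol arrays, against 5.48 and 5.60 on the baseline arrays. HDL replicate 2 was just above the cholesterol arrays, and HDL replicate 1 stood clearly above them. Kif23 changed with cholesterol by -1.08 ± 0.13 (SE, adjusted p = 0.00134). Racgap1, the partner of Kif23, and Ect2, the exchange factor that they place at the cell equator, fell with cholesterol, with differences of -2.28 and -2.40. Prc1, which bundles the antiparallel microtubules between the separating chromosomes, changed by -2.05. Their HDL arrays lay above both cholesterol arrays in each case, with differences of 0.83, 0.80 and 0.88 that did not pass the test.

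For chromosome structure, Top2a, the topoisomerase that untangles sister chromatids, had 7.89 and 7.09 on the HDL arrays and 6.26 and 6.56 on the cholesterol arrays, against 8.23 and 8.41 on the baseline arrays. Its groups did not overlap. Top2a changed with cholesterol by -1.91 ± 0.25 (SE, adjusted p = 0.00188), and differed between HDL and cholesterol cells by 1.08 ± 0.25 (SE, adjusted p = 0.0747) and between HDL and baseline cells by -0.83 ± 0.25 (SE, adjusted p = 0.0556). The last of these was -0.43 with HDL replicate 1 alone and -1.23 with replicate 2 alone. With both HDL arrays it passed when dim genes were left out of the adjustment (adjusted p = 0.0436). The difference from cholesterol cells was 1.48 with HDL replicate 1 alone and 0.68 with replicate 2 alone. Ncapg, a subunit of condensin, had 5.01 and 4.60 on the HDL arrays and 4.85 and 4.89 on the cholesterol arrays, against 5.27 and 5.32 on the baseline arrays. HDL replicate 2 was the lowest of the 6 arrays. Ncapg was called lower than baseline after HDL, -0.49 ± 0.14 (SE, adjusted p = 0.0483), a call lost with the baseline and HDL arrays alone (adjusted p = 0.0889) and with the replicate number in the fit (0.0569). The difference was -0.28 with HDL replicate 1 alone and -0.70 with replicate 2 alone.

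Other genes of the same phases were taken from the mouse cell cycle marker pairs of the scran package, which list genes by Ensembl identifier only. Of 95 G2M markers 19 were among the 36 genes described here, and 72 of the other 76 were measured. With cholesterol 39 of these 72 fell and 4 rose, with a median of -0.45 and a range of -3.02 to 1.10. Of the 72, 54.2% fell and 5.56% rose, against 13.1% and 10.4% of all genes. Without single arrays the median ranged from -0.47 to -0.42. Between HDL and cholesterol cells 2 of the 72 (2.78%) rose, against 1.79% of all genes, and 0 fell, against 0.949%, with a median of 0.14. With HDL replicate 1 alone 18 rose and 2 fell, against 5.6% and 4.22% of all genes, and with replicate 2 alone 2 rose and 0 fell, against 1.84% and 0.7%. Without a cholesterol or a baseline array these rises were not called, and fewer of all genes rose. Relative to baseline 30 (41.7%) were lower after HDL, against 10.9% of all genes, and 2 (2.78%) were higher, against 9.13%, with a median of -0.35. With HDL replicate 1 alone this median was -0.28, and with replicate 2 alone -0.31. Without baseline replicate 1 the median was -0.36, and without baseline replicate 2 it was -0.34. The counts and medians of these markers without single arrays were added after the data were seen.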

How the data were processed

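The deposited table holds log2 values, which the authors made from the arrays with Robust Multichip Average (RMA) and a University of Michigan custom probe mapping on Ensembl release 59, per the labels and design text. The RMA software version is not given in the sources used here. The authors normalized the baseline and cholesterol arrays alone (analysis I) and all 6 arrays together (analysis II), so 10 columns describe 6 arrays. The values of analysis II are the ones reported, since only they hold every group, and analysis I is an alternative.

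The 36 genes, their roles and the further lists were chosen with earlier results of these data known. Groups came from the labels. One fit of the 3 groups in analysis II used the moderated two-sided test of limma 3.58.1 under R 4.3.3 with no term but the group (3 residual and 4.03 prior degrees of freedom), with Benjamini-Hochberg adjustment over 16860 genes and no filter. The script was tested on simulated data with known changes. Full values were given, by rule, for the genes with the largest and smallest difference between cholesterol and baseline in each role, those called between HDL and cholesterol, and a fixed set. Nusap1, Kif2c and other genes outside that rule were named after their values were seen. Lists by symbol, cell type markers included, could not be matched to identifiers and were not tested. G2M markers of scran 1.30.0 stood in for them (the higher gene in 10 or more pairs and in 90% or more of those that list it, in a single phase). Alternatives were the fit of 2 groups, the replicate number as a term, a variance trend, a filter on dim genes (mean under the 25th percentile), a minimum difference of 1, the one-way test of the design text, and leaving out each array. The number of arrays limits the precision. RMA gives the arrays one distribution, so a change in total RNA per cell would not show.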

Additional observations from a re-analysis of the deposited data

How the results depend on the processing

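The counts of genes among the 33 that fell with cholesterol ranged from 28 to 33 without each array in turn, and their median difference from -2.17 to -1.93. For HDL against cholesterol the count that rose ranged from 0 to 23 and the median from 0.42 to 1.03. For HDL against baseline the count that fell ranged from 9 to 32 and the median from -1.61 to -0.93. Over all genes the counts ranged from 1861 to 4915 for cholesterol against baseline, 74 to 1656 for HDL against cholesterol and 1263 to 4256 for HDL against baseline. These fits take the spread of a single remaining array from the other groups. The one-way test per gene, which has fewer degrees of freedom, called 0 of the 33 genes in each of the 3 comparisons. For cholesterol against baseline, HDL against cholesterol and HDL against baseline it called 3, 0 and 0 of all genes. In the same order 32, 0 and 12 of the 33 had an unadjusted p under 0.05, against 4746, 1577 and 3391 of all genes. The one-way test in analysis I, a combination added after the data were seen, called 0 of 33 and 38 of all genes. With a minimum difference of 1, stricter by construction, 949, 170 and 899 of all genes were called. With the cholesterol and HDL arrays alone 0 of the 33 and 145 of all genes were called between these groups. With dim genes left out 4 of the 33 rose between them. Of all genes 586 were then called in either direction, against 461 with no filter. Some differences between HDL and cholesterol cells changed sign when an array was left out. Of the genes given full values, Cdc20 ranged from -0.17 to 0.26 and Foxm1 from -0.028 to 0.062. Aspm ranged from -0.033 to 0.22 and Ncapg from -0.27 to 0.14. With HDL replicate 2 alone Cenpa, Hmmr and Kif2c changed sign as well. On that array they lay at 7.91, 5.61 and 6.02, against cholesterol means of 7.95, 5.70 and 6.14. The labels do not say that arrays with the same number belong together, and the correlations of their deviations across genes were 0.133 for HDL and cholesterol, 0.005 for HDL and baseline and 0.016 for cholesterol and baseline. With the replicate block 32 of the 33 fell with cholesterol, 2 rose between cholesterol and HDL, and 26 were lower than baseline after HDL. Of all genes 3788, 392 and 3285 were called in these comparisons, in either direction. With 2 arrays a group these correlations do not settle whether the numbers pair the arrays.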
